A study of Mus musculus with 6 samples.

Results

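The interferon-stimulated genes described here are 34 mouse genes chosen by name, among them the Ifit and Oas families, Usp18, Irf7, Mx1 and Parp14. Of these, 31 had a probe set mapped to exactly 1 gene and so a value, out of 19938 genes with such a probe set. A gene with several was represented by the brightest on average. The probe sets of Isg15 and Gbp2 are shared with another gene each, and those genes and Ifi44 were not analysed here.

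The arrays profiled mouse pre-B cells carrying BCR-ABL1, an oncogenic kinase fusion found in a human acute lymphoblastic leukaemia. The cells came from mice of 5 weeks on a mixed 129SvEv x C57BL/6J background, and in all 6 samples both alleles of Sox4, a transcription factor of B-cell progenitors, were floxed. The 3 samples of the ERT2 group received ERT2, an oestrogen receptor domain without recombinase, and the 3 of the Cre-ERT2 group with Cre-ERT2, a recombinase that 4OHT (4-hydroxytamoxifen) switches on. RNA for 1 Affymetrix array each was taken 24 h after 4OHT. No sample is labelled as free of 4OHT, and none combines Cre-ERT2 with unfloxed Sox4, so effects of Cre itself and of Sox4 deletion cannot be told apart. The labels do not say whether the samples of a group are separate cultures or clones, so the spread behind the p-values may be a technical one between these 6 samples.

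Interferons are secreted when a cell senses foreign or misplaced nucleic acid. They bind receptors whose kinases, such as JAK1 and TYK2, switch on transcription factors. A complex that holds STAT2 and IRF9 binds the interferon-stimulated response element (ISRE) in the promoters of antiviral genes, whereas the gamma-activated sequence (GAS) is the element known above all from genes induced by interferon-gamma. Many of these genes are also transcribed at a low, tonic level without infection.

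Promoter stretches of 6 of these genes are shown to place genes that rose (Irf1, Xaf1) beside genes that did not pass the test. Of the 6, Oas1a and Bst2 hold both kinds of element, Ifit1 and Ifit3 an ISRE alone, Irf1 a GAS alone and Xaf1 neither. RefSeq promoter windows (GRCm38.p6) run from 250 bases before to 50 bases after each start, and 24 of the 34 genes had at least 1. An ISRE was searched as GAAA, any 2 bases and GAAA again, and a GAS as TTCNNNGAA, on both strands, and overlapping matches were kept. Each stretch ends at the base before the start, is written 5′ to 3′ on the strand of the gene, and has the matches in capitals. The stretches lie at chr11:53769884-53770013 on the plus strand (Irf1), chr11:72301499-72301628 on the plus strand (Xaf1), chr19:34640759-34640888 on the plus strand (Ifit1), chr19:34583349-34583528 on the plus strand (Ifit3), chr5:120907526-120907655 on the minus strand (Oas1a) and chr8:71537473-71537622 on the minus strand (Bst2).
Irf1: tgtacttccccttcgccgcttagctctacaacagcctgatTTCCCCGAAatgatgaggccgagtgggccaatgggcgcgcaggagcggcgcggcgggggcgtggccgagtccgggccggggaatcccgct
Xaf1: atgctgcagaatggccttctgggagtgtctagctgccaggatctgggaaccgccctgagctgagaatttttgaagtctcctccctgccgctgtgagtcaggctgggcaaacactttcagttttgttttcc
Ifit1: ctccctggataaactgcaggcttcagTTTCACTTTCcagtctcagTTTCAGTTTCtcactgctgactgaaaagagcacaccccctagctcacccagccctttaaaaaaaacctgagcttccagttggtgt
Ifit3: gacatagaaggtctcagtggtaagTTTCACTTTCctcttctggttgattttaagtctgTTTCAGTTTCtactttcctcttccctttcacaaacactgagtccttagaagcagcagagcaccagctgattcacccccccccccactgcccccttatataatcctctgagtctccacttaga
Oas1a: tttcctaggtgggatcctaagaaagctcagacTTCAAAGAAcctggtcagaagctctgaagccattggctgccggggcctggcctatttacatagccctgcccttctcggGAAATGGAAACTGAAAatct
Bst2: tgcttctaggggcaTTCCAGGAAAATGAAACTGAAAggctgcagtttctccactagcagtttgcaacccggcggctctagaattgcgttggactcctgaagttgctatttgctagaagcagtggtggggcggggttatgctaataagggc

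The ISRE letters occurred in 13 of the 24 member genes with a window (54.2%), against 3.99% of 27025 genes. The GAS letters occurred in 7 of the 24 (29.2%), against 9.55% of genes, and 3 members had both. In Ifit1 the ISRE matches begin 104 and 85 bases before the start, and in Ifit3 156 and 122 bases before it. In Oas1a 2 overlapping ISRE matches begin 20 and 14 bases before the start and a GAS match 98 bases before it. In Bst2 a GAS match 136 bases before the start overlaps the first of 2 ISRE matches. In Irf1 a single GAS match begins 90 bases before the start in 1 of its 2 windows, and in Xaf1 neither motif occurs in the window. A match describes the letters of the window and is not evidence of binding.

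Sox4, the floxed gene, was lower in every Cre-ERT2 array. Its intensity (the authors' RMA value per probe set, in arbitrary units) was 1459, 1372 and 1237 in the ERT2 arrays and 599, 541 and 499 in the Cre-ERT2 arrays. The difference of Cre-ERT2 minus ERT2 was -1.31 on the scale of log2(intensity + 1), on which all differences here are given (SE 0.0912, limma adjusted p = 0.000434). The exact two-sided permutation test gave p = 0.1, the smallest that 3 against 3 arrays allow. Array medians lay between 273 and 279, and arrays of a group correlated with r from 0.995 to 0.997 over all probe sets (genes are no independent replicates). ERT2 replicate 2 stood farthest from its group, with SDs of log2 differences of 0.231 and 0.242 from the other controls against 0.184 between those. The number of higher members is therefore also given without ERT2 replicate 2.

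Interferon-stimulated genes differed little between the groups. Usp18, Irf1, Ifi35 and Xaf1 rose in the Cre-ERT2 cells, by 1.25-fold to 1.43-fold, and no member fell. Thus 4 of 31 members were higher at limma adjusted p under 0.05 (12.9%), where 4.38% of all genes were higher and 3.72% lower (3.21% and 2.84% of all probe sets). At unadjusted p under 0.05, 13 members were higher and 1 was lower, against 12.2% and 7.93% of all genes. The median difference was 0.09 over the members and 0.02 over all genes. In 21 of 31 members the difference was above 0 (67.7%), as in 59.3% of all genes. None of the 31 differed by more than 1.5-fold, whereas 3.22% of all genes did. In 13 members all Cre-ERT2 arrays lay above all ERT2 arrays (41.9%, against 17.5% of all genes), and in 1 member, Ifih1, all lay below (10.8% of all genes).

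**Figure D1:**
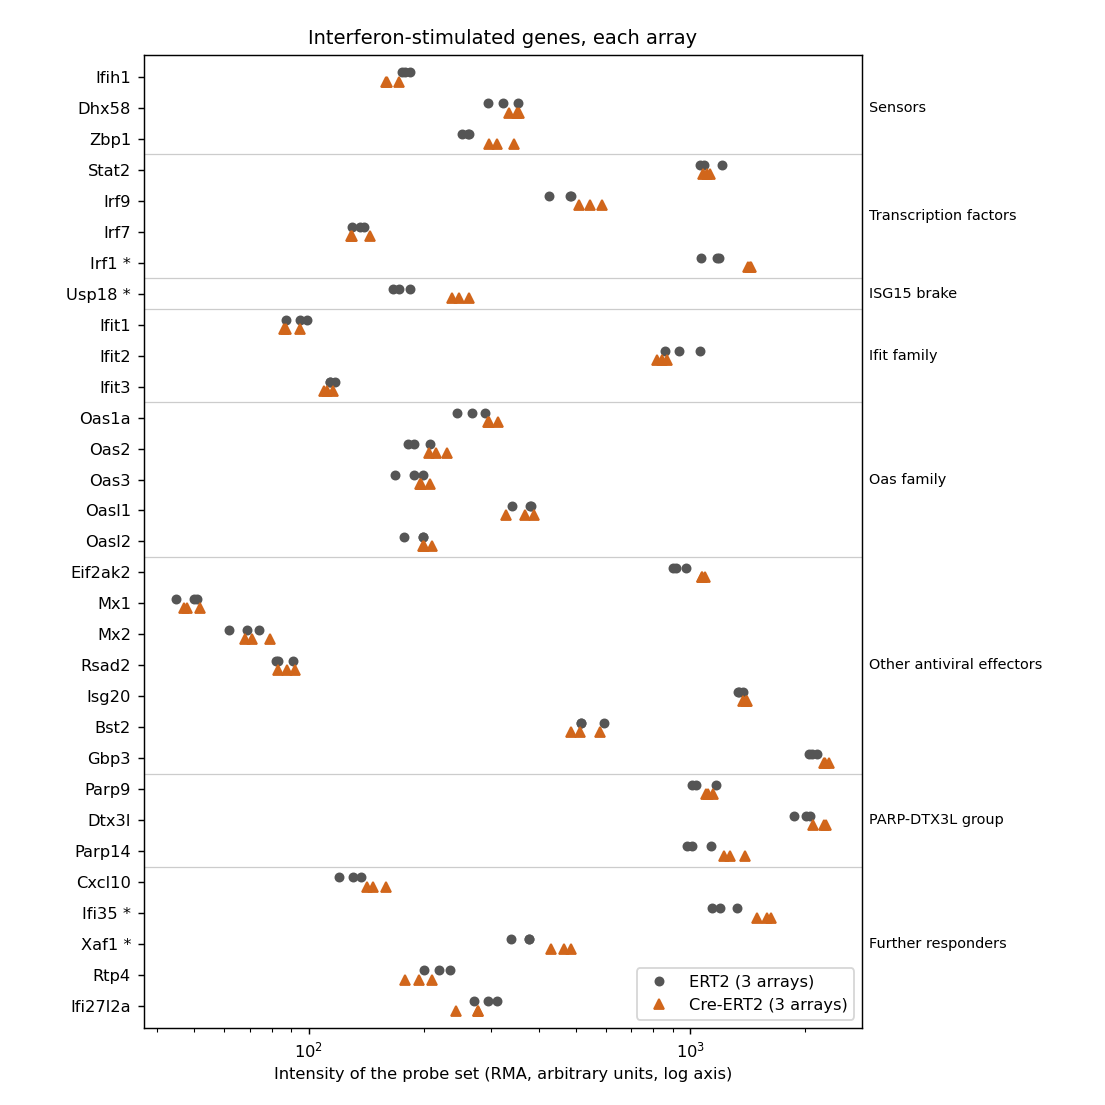
Intensity of each member's probe set on each array (log axis, arbitrary units), with circles for the 3 ERT2 arrays and triangles for the 3 Cre-ERT2 arrays. Members are ordered by role and an asterisk marks the 4 with adjusted p under 0.05. Triangles lie to the right of all circles in 13 members, and the shifts are small beside the span of the axis. Intensities of different genes depend on their probes and are not ordered against each other.

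Leaving out single arrays changed the number of higher members. It was 1 without ERT2 replicate 1 and also without each Cre-ERT2 replicate in turn, 2 without ERT2 replicate 3 and 5 without ERT2 replicate 2. With the test limited to the 21789 probe sets of exactly 1 gene it was 7, where 6.54% of those probe sets were higher and 5.22% lower, since Eif2ak2, Zbp1 and Parp14 then passed.

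Usp18 showed the largest difference among the members. Its protein removes ISG15 from other proteins and blocks signalling from the type I interferon receptor, and is a feedback brake of the pathway. Usp18 had intensities of 172, 184 and 166 in the ERT2 arrays and 248, 263 and 237 in the Cre-ERT2 arrays. All Cre-ERT2 arrays lay above all controls, and the ranges were far apart. The mean went from 174 ± 9.41 to 249 ± 12.9 (SD, n = 3 each), a difference of 0.51 (SE 0.0641, limma adjusted p = 0.00529). Usp18 was higher at that threshold in all 17 alternative analyses that tested it, with adjusted p from 0.00863 to 0.0301 when any 1 array was left out.

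Among the transcription factors of the pathway, Irf1 rose, while Irf7, Irf9 and Stat2 did not pass the test. Irf1, an early activator that interferon-gamma induces, read 1173, 1186 and 1067 in the ERT2 arrays and 1430, 1440 and 1418 in the Cre-ERT2 arrays. The Cre-ERT2 values of Irf1 were close together and above all controls, with a difference of 0.33 (SE 0.0566, limma adjusted p = 0.0218). A second, dimmer Irf1 probe set read 244, 229 and 256 against 259, 262 and 241, with overlapping groups and a difference of 0.06 (SE 0.0627, adjusted p = 0.731). The call on Irf1 was lost without ERT2 replicate 1 and without each Cre-ERT2 replicate in turn (adjusted p from 0.0649 to 0.0943). Irf9, the DNA-binding partner of STAT2, read 483, 486 and 427 in the ERT2 arrays and 511, 587 and 544 in the Cre-ERT2 arrays. These Irf9 values did not overlap, but the difference of 0.23 (SE 0.0784) had an adjusted p = 0.185. Stat2, which carries an activation domain, read 1084, 1212 and 1062 against 1081, 1125 and 1104. Irf7, the factor that amplifies interferon-alpha production and is itself induced by interferon, read 140, 130 and 136 against 145, 129 and 130. The groups overlapped for both, with differences of -0.02 for Stat2 (95% interval -0.17 to 0.13) and -0.01 for Irf7 (-0.17 to 0.14).

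No member of the Ifit family, whose proteins bind viral RNA and hold back its translation, passed the test. Ifit1 read 95, 99 and 87 in the ERT2 arrays and 95, 86 and 87 in the Cre-ERT2 arrays, and Ifit3 read 117, 114 and 114 against 116, 110 and 112. Both overlapped between the groups, with differences of -0.07 (95% interval -0.23 to 0.09) for Ifit1 and -0.02 (-0.14 to 0.09) for Ifit3. Ifit2, their neighbour on chromosome 19, read 932, 1058 and 858 against 818, 867 and 842, with a difference of -0.17 (-0.37 to 0.03). At unadjusted p under 0.05, 0 of the 3 were higher and 0 lower, against 12.2% and 7.93% of all genes. These genes resemble further Ifit copies, and whether their probes tell the copies apart was not tested.

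The Oas genes, which make the 2-5A messenger that switches on the nuclease RNase L, and their Oasl relatives did not pass either. Oas1a read 289, 244 and 267 in the ERT2 arrays and 313, 296 and 295 in the Cre-ERT2 arrays. These did not overlap, and the difference was 0.18 (95% interval 0.00 to 0.35, adjusted p = 0.279). Oas2 had a difference of 0.17 (adjusted p = 0.279), Oas3, next to Oas2 on chromosome 5, of 0.11 and the adjacent genes Oasl2 and Oasl1 of 0.08 and -0.02. At unadjusted p under 0.05, Oas1a and Oas2 were higher and 0 of the family were lower, against 12.2% and 7.93% of all genes. The Oas1 copies are much alike, and a further probe set that Oas1a shares with Oas1g was not used.

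Among the other antiviral effectors 0 of 7 passed. At unadjusted p under 0.05, 2 of the 7 were higher and 0 lower, against 12.2% and 7.93% of all genes. Eif2ak2, the kinase PKR that stops translation on double-stranded RNA, came nearest: it read 916, 976 and 899 in the ERT2 arrays and 1074, 1093 and 1073 in the Cre-ERT2 arrays, a difference of 0.22 (SE 0.0509, limma adjusted p = 0.0665). The groups did not overlap. Eif2ak2 passed without ERT2 replicate 2 (adjusted p = 0.0436) and in 6 other alternative analyses. These include the test over the probe sets above the median brightness. Gbp3, a guanylate-binding GTPase that attacks the vacuoles of pathogens, also did not overlap, at 2077, 2139 and 2042 against 2243, 2251 and 2310 (difference 0.12, adjusted p = 0.245). Mx1, a GTPase that traps viral nucleocapsids, read 45, 50 and 51 against 52, 47 and 48 and had a difference of 0.01 (95% interval -0.15 to 0.18). Mx1 was lower under a further quantile normalization (-0.018) and cyclic loess (-0.0029), without passing the test. Its relative Mx2 differed by 0.09 (-0.11 to 0.30). Rsad2, which makes a chain-terminating nucleotide, differed by 0.04 (-0.12 to 0.20), and Isg20, an RNA exonuclease, by 0.05 (-0.06 to 0.15). Bst2, or tetherin, which holds budding virus on the cell surface, read 516, 518 and 595 against 578, 486 and 514, with overlapping groups and a difference of -0.05 (-0.26 to 0.17).

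**Figure D2:**
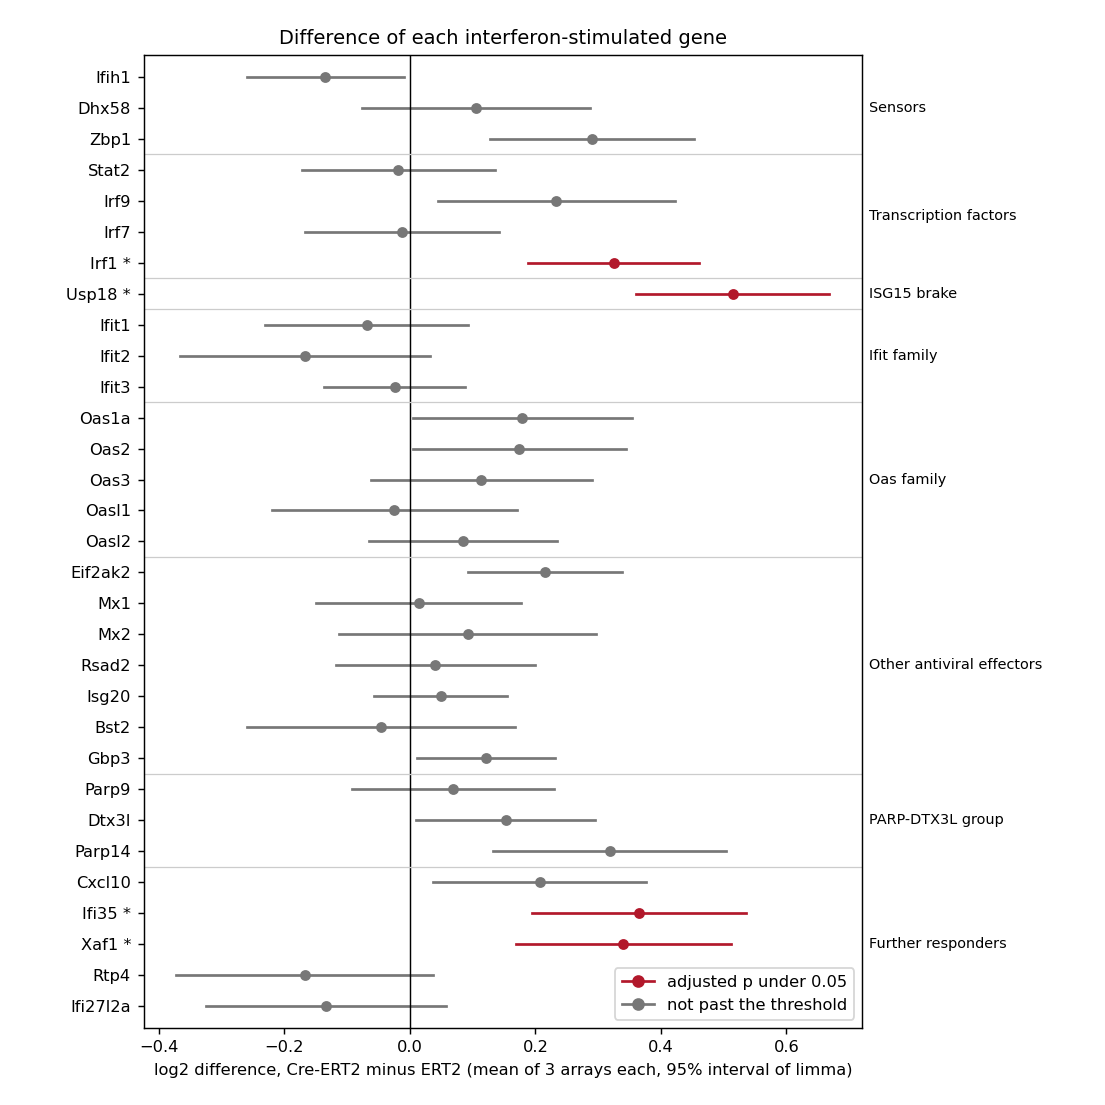
Log2 difference of each member, Cre-ERT2 minus ERT2 (point), with limma's 95% interval (line), from 3 arrays in each group. Members are ordered by role, and those with adjusted p under 0.05 are red. The 4 red members lie between 0.33 and 0.51, and the 27 grey ones between -0.17 and 0.32.

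Parp14, Dtx3l and Parp9 lie next to each other on chromosome 16, and their products act in ADP-ribosylation and ubiquitination of immune signalling proteins. Parp14 read 977, 1129 and 1012 in the ERT2 arrays and 1227, 1391 and 1270 in the Cre-ERT2 arrays, which did not overlap (difference 0.32, SE 0.0773, limma adjusted p = 0.0726). Parp14 passed without ERT2 replicate 2 and in 7 other alternative analyses. Dtx3l, a ubiquitin ligase, read 2003, 2060 and 1873 against 2094, 2263 and 2242 (difference 0.15, adjusted p = 0.257). Parp9, the binding partner of DTX3L, read 1034, 1165 and 1009 against 1148, 1097 and 1115, with overlapping groups (difference 0.07, adjusted p = 0.722). None of the 3 passed in the main analysis, where 4.38% of all genes were higher and 3.72% lower. At unadjusted p under 0.05, 2 of the 3 were higher and 0 lower, against 12.2% and 7.93% of all genes.

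Of 3 members that sense nucleic acid, none passed, where 4.38% of all genes were higher and 3.72% lower. At unadjusted p under 0.05, 1 of the 3 was higher and 1 lower, against 12.2% and 7.93% of all genes. Zbp1, a sensor of Z-form nucleic acid that can start necroptosis, read 252, 261 and 263 in the ERT2 arrays and 345, 311 and 296 in the Cre-ERT2 arrays, which did not overlap (difference 0.29, SE 0.0677, limma adjusted p = 0.0631). Zbp1 passed in 4 alternative analyses. Ifih1, the MDA5 sensor of long double-stranded RNA, read 179, 184 and 176 against 160, 172 and 159. These were the only member values that lay wholly below the controls, with a difference of -0.13 (SE 0.0520, adjusted p = 0.253). Dhx58, the LGP2 partner of MDA5, overlapped between the groups (difference 0.10, adjusted p = 0.598).

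Of 5 further responders Ifi35 and Xaf1 rose, where 4.38% of all genes were higher. At unadjusted p under 0.05, 3 of the 5 were higher and 0 lower, against 12.2% and 7.93% of all genes. Ifi35, a leucine-zipper protein that binds NMI, read 1140, 1324 and 1197 in the ERT2 arrays and 1628, 1586 and 1495 in the Cre-ERT2 arrays. The groups of Ifi35 did not overlap, and the difference was 0.36 (SE 0.0710, limma adjusted p = 0.0334). Its adjusted p lay between 0.0800 and 0.123 when ERT2 replicate 1 or 3 or any single Cre-ERT2 array was left out. Xaf1, which binds and opposes the apoptosis inhibitor XIAP, read 377, 377 and 338 against 467, 486 and 430, a difference of 0.34 (SE 0.0716, adjusted p = 0.0442). The call on Xaf1 was lost without any 1 of the 6 arrays (adjusted p from 0.0658 to 0.154) and with arrays centred on their medians (0.0551). Cxcl10, the chemokine that draws CXCR3-bearing T cells, read 137, 120 and 131 against 147, 142 and 159, which did not overlap (difference 0.21, adjusted p = 0.193). Rtp4, a receptor-transporting protein, and Ifi27l2a, a small mitochondrial protein, had differences of -0.17 (adjusted p = 0.407) and -0.13 (adjusted p = 0.496).

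The level of a probe set bears on what could be seen. In 15 of the 31 members the ERT2 mean lay under 276, the median of all probe sets, and Usp18 was the 1 of these that passed. Of 16 brighter members 3 passed. Among all genes 2.17% of those under the median and 6.37% of those above it were higher. No detection call was used here, so a low intensity such as that of Mx1 cannot be told from the absence of transcript.

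The members shifted together only slightly on each array. Set against the ERT2 mean of each gene, the median member deviated by 0.10, 0.08 and 0.07 on the Cre-ERT2 arrays and by 0.00, 0.04 and -0.03 on the ERT2 arrays. Of 31 members 26, 22 and 19 lay above the ERT2 mean on the Cre-ERT2 arrays, and 16, 21 and 11 on the ERT2 arrays. ERT2 replicate 2 thus lay within the Cre-ERT2 range in this count.

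Promoter letters can be set beside these values, for the members with a window. Usp18, Zbp1, Parp14 and Oas2 are among the 10 without one, so the gene with the largest rise is not in these counts. Of 11 measured members with an ISRE match 0 passed limma's test (4 were higher and 1 lower at unadjusted p under 0.05), where 4.38% of all genes were higher, and their median difference was 0.04, with a range of -0.13 to 0.22. Of 7 with a GAS match, 3 of which also had an ISRE match, Irf1 and Ifi35 rose, and the median was 0.18. The Ifi35 match begins 8 bases after the start. Xaf1 rose with neither motif in its window. Of 10 measured members without an ISRE match 3 rose, with a median of 0.12. The 6 measured members with neither motif also had a median of 0.12.

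Some other genes of the interferon pathway changed more, in both directions. The 8 lists of pathway genes gave 154 further measured genes besides the members, of which 15 rose (9.74%) and 9 fell (5.84%), against 4.38% and 3.72% of all genes. Their median difference was 0.04, and 11 of them differed by more than 1.5-fold. The lists were chosen with earlier results of these data known, so these shares are no test of the pathway. By the mean over all arrays, 112 of the 154 lay above the median of all probe sets. Among all genes with an ERT2 mean above the median, 6.37% were higher.

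**Figure D3:**
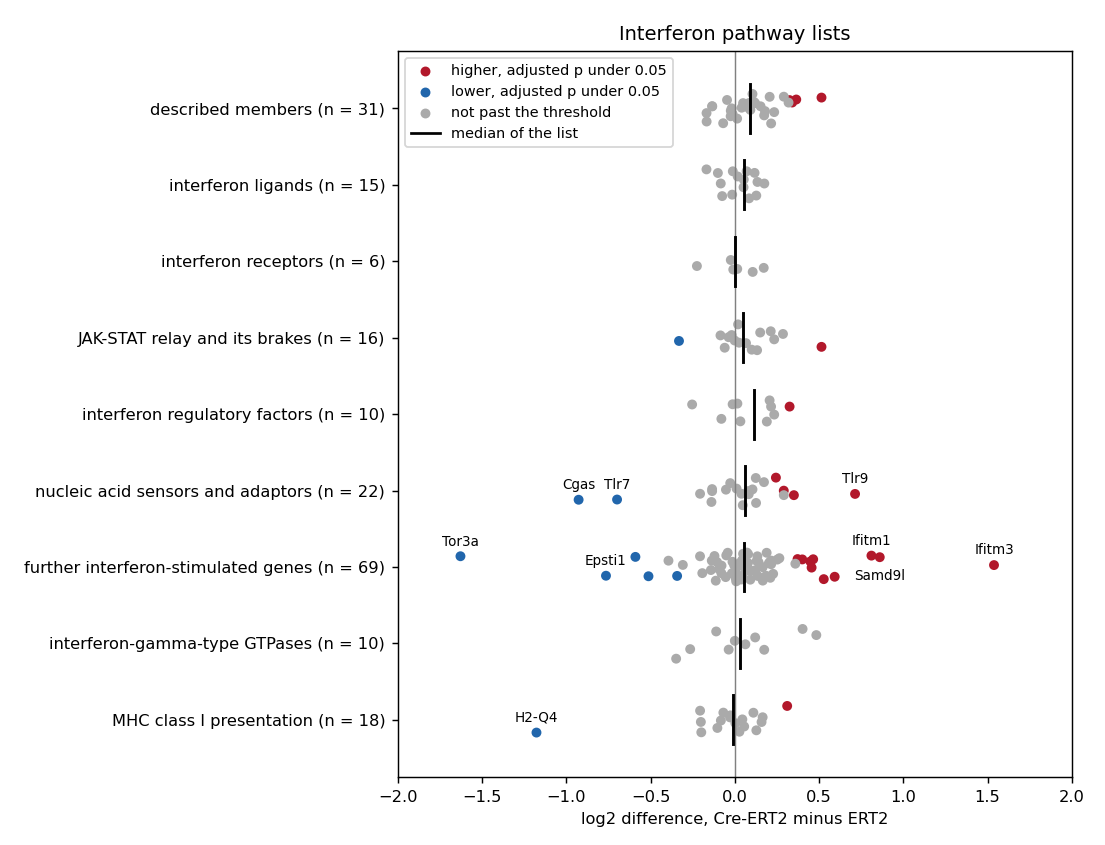
Log2 difference, Cre-ERT2 minus ERT2, of each measured gene of the described members and of the pathway lists, which overlap in part. Red and blue points are higher and lower at adjusted p under 0.05, bars are list medians, and vertical scatter within a list has no meaning. The largest differences are those of Tor3a (-1.63) and Ifitm3 (1.54), neither of which is a member.

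Genes for the interferons themselves gave no call. Of 15 measured ligand genes 0 were higher and 0 lower by limma, also at unadjusted p under 0.05, with differences from -0.17 to 0.18. The 4 with the smallest p were Ifna11 (-0.17), Ifna13 (0.18), Ifnk (0.13) and Ifnab (0.08). Of 6 receptor genes 0 passed, where 4.38% of all genes were higher and 3.72% lower. At unadjusted p under 0.05, 2 of the 6 were higher and 1 lower, against 12.2% and 7.93% of all genes. Ifngr2, the signalling chain of the interferon-gamma receptor, read 6047, 6268 and 6178 in the ERT2 arrays and 5080, 5448 and 5298 in the Cre-ERT2 arrays, a difference of -0.22 (SE 0.0492, limma adjusted p = 0.0511). Ifngr1, its ligand-binding chain, read 3705, 3874 and 3856 against 4319, 4276 and 4282 (difference 0.17, adjusted p = 0.0938). The groups overlapped in neither chain, Ifngr2 being lower and Ifngr1 higher. Ifngr2 passed in 9 alternative analyses and Ifngr1 in 3. Ifnar2, a chain of the type I receptor, had a difference of 0.11 (adjusted p = 0.273) and Il10rb, the shared chain of the lambda receptor, of -0.02 (adjusted p = 0.929).

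In the relay from receptor to nucleus, Socs1 fell and Usp18 was the 1 of 16 genes that rose. Over all genes 4.38% were higher and 3.72% lower. Socs1, a feedback inhibitor of JAK kinases, read 1236, 1205 and 1111 in the ERT2 arrays and 960, 966 and 896 in the Cre-ERT2 arrays. The groups did not overlap, and the difference was -0.33 (SE 0.0619, limma adjusted p = 0.0285), although the call on Socs1 was lost when any array but ERT2 replicate 3 was left out (0.0698 to 0.120). Socs3 and Cish, feedback inhibitors of the same family, had differences of 0.21 (adjusted p = 0.210) and 0.13 (0.207), opposite in sign to that of Socs1, without passing the test. Tyk2, the kinase of the type I receptor, had a difference of 0.29 (adjusted p = 0.0656), and Ptpn6, the phosphatase SHP-1, of 0.15 (adjusted p = 0.153). Tyk2 passed without ERT2 replicate 2 and in 6 other alternative analyses. Among 10 interferon regulatory factors Irf1 alone passed in the main analysis. Irf2, an antagonist of IRF1, had a difference of 0.21 (adjusted p = 0.0551), Irf4, a factor of B-cell differentiation, of 0.22 (0.0571) and Irf5, a factor below Toll-like receptors, of -0.25 (0.0898). Irf2 passed in 8 alternative analyses, Irf4 in 6 and Irf5, as lower, in 6.

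Of 22 sensors of nucleic acid and their adaptors 4 were higher, 2 were lower and 16 did not pass the test, where 4.38% of all genes were higher and 3.72% lower. With the replicate number as a block, 2 were higher and 1 was lower. Tlr9, the endosomal receptor of CpG DNA, rose: it read 896, 915 and 890 in the ERT2 arrays and 1468, 1565 and 1401 in the Cre-ERT2 arrays (difference 0.71, SE 0.0563, limma adjusted p = 0.000753). Cgas, the cytosolic DNA sensor that makes the messenger cGAMP, fell, from 180, 186 and 176 to 89, 94 and 101 (difference -0.93, SE 0.0616, adjusted p = 0.000364). Both kept their calls whichever array was left out. Sting1, the receptor of cGAMP, rose from 5549, 5482 and 5192 to 6690, 6624 and 6521, a difference of 0.29 (SE 0.0486, adjusted p = 0.0184). Cgas and Sting1, sensor and receptor of the same pathway, thus moved in opposite directions. Tlr7, the endosomal receptor of single-stranded RNA, fell from 111, 138 and 105 to 71, 66 and 78 (difference -0.70, SE 0.114, adjusted p = 0.0164). Aim2, a DNA sensor of the inflammasome, and Trim25, a ubiquitin ligase of the RIG-I pathway, rose by 0.35 and 0.24 (adjusted p = 0.0313 and 0.0302). Without ERT2 replicate 1 or Cre-ERT2 replicates 1 or 2, Sting1, Tlr7, Aim2 and Trim25 all lost their calls (adjusted p up to 0.136), and the number of higher genes in the list was then as low as 1.

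Among 69 further interferon-stimulated genes, 2 of them members, 10 rose and 5 fell, where 4.38% of all genes were higher and 3.72% lower. Ifitm3, a transmembrane protein that blocks entry of viruses, showed the largest rise: it read 429, 429 and 419 in the ERT2 arrays and 1362, 1208 and 1151 in the Cre-ERT2 arrays, a 2.90-fold rise (difference 1.54, SE 0.0709, limma adjusted p = 9.95e-05). Ifitm1, of the same family, rose 1.75-fold, from 5726, 5390 and 5603 to 9937, 9696 and 9688 (difference 0.81, SE 0.0474, adjusted p = 0.000226). Samd9l, a growth inhibitor and antiviral translation repressor, rose from 756, 875 and 706 to 1377, 1413 and 1437 (difference 0.86, SE 0.0844, adjusted p = 0.00190). In all 3 genes the groups were far apart. Smaller rises were seen in Lgals3bp, a secreted galectin-3 ligand (0.53), Trim30a, a TRIM protein (0.46), Shisa5, a p53-inducible protein of the endoplasmic reticulum (0.45), and Adar, the double-stranded RNA deaminase (0.37). The Schlafen genes, regulators of lymphocyte growth and quiescence, did not move as one: Slfn5, Slfn8 and Slfn9 rose by 0.59, 0.40 and 0.47, whereas Slfn2 fell by 0.51 (adjusted p from 0.000970 to 0.0131). Slfn1 had a difference of 0.04 with overlapping groups (adjusted p = 0.880). Slfn2 read 4284, 4243 and 4163 in the ERT2 arrays against 2952, 2959 and 2983. Members of this gene cluster are similar in sequence, and whether their probes tell them apart was not tested.

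Tor3a, an ATPase of the torsin family, showed the deepest fall of the pathway genes. It read 1316, 1373 and 1144 in the ERT2 arrays and 398, 421 and 415 in the Cre-ERT2 arrays, so that 32.4% of the control level was left (difference -1.63, SE 0.0775, limma adjusted p = 0.000105). Epsti1, an interferon-responsive gene first known from breast epithelium, fell from 814, 794 and 759 to 444, 476 and 471 (difference -0.76, SE 0.0538, adjusted p = 0.000444). Parp12, an ADP-ribosyltransferase, fell from 217, 203 and 215 to 136, 145 and 139 (difference -0.59, adjusted p = 0.00114). Cmpk2, a mitochondrial nucleotide kinase that lies beside Rsad2 in the genome, had a difference of -0.34 (adjusted p = 0.0406). Tor3a, Epsti1, Parp12 and Slfn2 kept their calls whichever array was left out, as did Ifitm1, Ifitm3, Samd9l, Lgals3bp, Trim30a, Slfn8 and Shisa5. Slfn5, Slfn9, Adar and Cmpk2 lost them without some arrays (adjusted p from 0.0520 to 0.152).

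**Figure D4:**
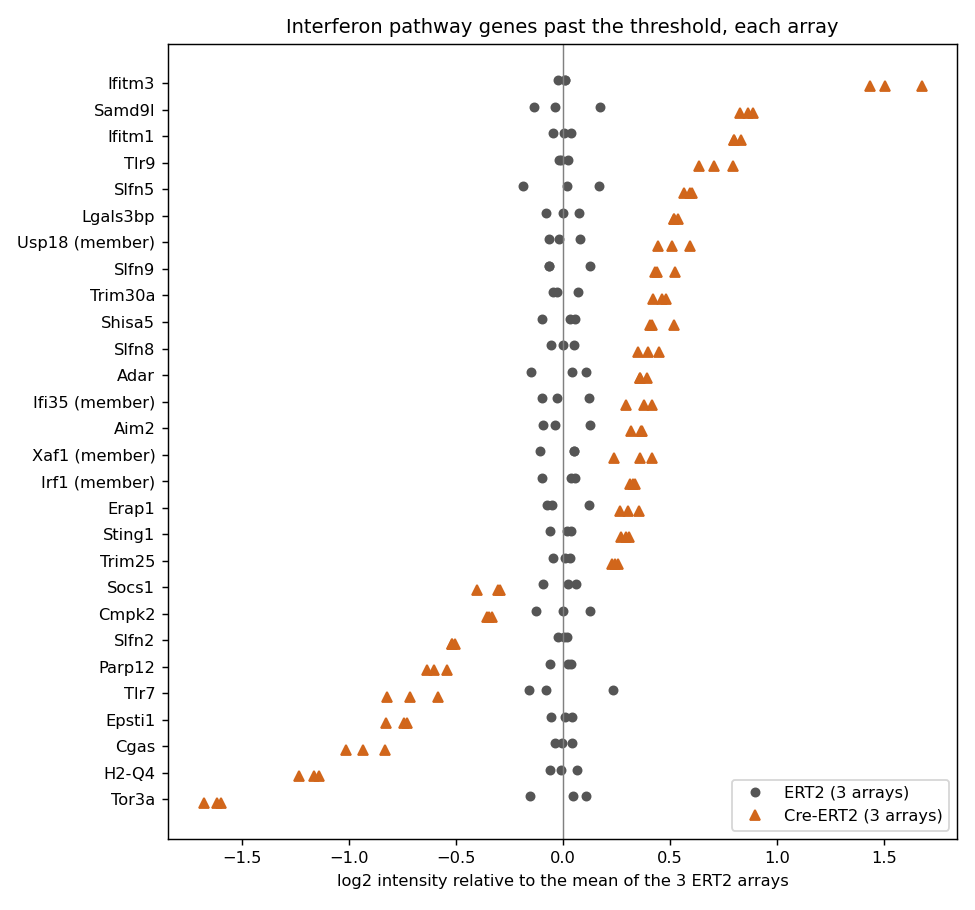
Log2 intensity of each array relative to the mean of the 3 ERT2 arrays, for the 24 pathway genes and the 4 members (marked as such) with adjusted p under 0.05, ordered by difference. Circles are ERT2 arrays and triangles Cre-ERT2 arrays. The groups are apart in every gene shown, which the choice of called genes favours, and the 4 members lie between 0.33 (Irf1) and 0.51 (Usp18).

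The GTPases typical of interferon-gamma gave 0 calls among 10 measured genes, where 4.38% of all genes were higher and 3.72% lower. At unadjusted p under 0.05, 4 of the 10 were higher and 3 lower, against 12.2% and 7.93% of all genes. With the replicate number as a block, 2 were called higher and 1 lower. Gbp5 and Iigp1, which act on vacuoles of pathogens, had differences of 0.40 (adjusted p = 0.0840) and 0.48 (0.105), while Gbp4 and Gbp8 had differences of -0.35 (0.107) and -0.26 (0.0751). The other 8 genes of this list had no probe set of their own and were not analysed here. Among 18 genes of MHC class I presentation 1 rose and 1 fell, against 4.38% and 3.72% of all genes. H2-Q4, a non-classical class I gene, fell from 1080, 1025 and 991 to 438, 468 and 460 (difference -1.18, SE 0.0553, limma adjusted p = 0.000104). Its sequence resembles other class I genes, and whether the probes also bind those was not tested. Erap1, which trims peptides for class I, rose by 0.31 (adjusted p = 0.0499) and lost its call when any array but ERT2 replicate 2 was left out (0.112 to 0.175). Psme1, a proteasome activator subunit, and H2-T10 had differences of 0.16 (adjusted p = 0.112) and -0.21 (0.103).

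Markers of the labelled cell type and of others were measured beside these genes. Over all genes 4.38% were higher and 3.72% lower. Of 12 pre-B cell markers Cd79a lay between 11089 and 12248 and Igll1 between 18803 and 19083 in all arrays. Vpreb2 rose (difference 0.49), whereas Enpep (-4.84, to 3.49% of the control level), Rag1 (-0.89) and Rag2 (-1.35) fell. The summed intensity of the 12 markers lay between 87127 and 87505 in the ERT2 arrays and between 80277 and 82091 in the Cre-ERT2 arrays, which did not overlap. Enpep alone made up -3589 of a change of -6114 in this sum. Pax5 (-880) and Cd24a (-816) made up the next largest parts, and both were lower without overlap of the groups. Their differences were -0.22 (limma adjusted p = 0.0552) and -0.11 (0.358), without passing the test. Cd79b, Vpreb1, Vpreb2 and Igll1 moved the other way. Of 12 myeloid markers Lyz2 (difference 1.40) and Fcgr1 (0.64) rose and Itgam (-0.49) fell, and their summed intensity lay between 2244 and 2352 in the ERT2 arrays and between 2793 and 2975 in the Cre-ERT2 arrays. Of 10 T-cell markers Cd5 (0.56) and Lat (0.47) rose, and the sum lay between 2256 and 2402 against 2634 to 2824. Of 8 markers of plasmacytoid dendritic cells, the main source of interferon-alpha in blood, Tlr9 rose and Tlr7 fell, and the sum lay between 2289 and 2399 against 2829 to 2985. Bst2 is also among them. Single genes carried these higher sums: Tlr9 rose by 578 of a change of 588 in the plasmacytoid sum, Lyz2 by 580 of 629 in the myeloid sum, and Lat and Cd5 by 247 and 182 against a change of 392 in the T-cell sum. None of 9 NK-cell, 4 erythroid or 10 stromal markers passed (0 were higher and 0 lower at unadjusted p under 0.05), with sums of 839 to 872, 863 to 925 and 1988 to 2294 in the ERT2 arrays and of 846 to 894, 860 to 951 and 2134 to 2282 in the Cre-ERT2 arrays. No marker was at 0 on any array. The part of these markers in the differences of interferon genes was not tested. In such bulk samples more cells that express a gene and more RNA of it per cell cannot be told apart.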

How the data were processed

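Biotin-labelled RNA of 6 samples was measured on 1 Affymetrix array each, per the labels' protocols. The deposited values are 1 intensity per probe set and array, made by the authors with RMA (background correction, quantile normalization, summary of probes), per the submitters' processing notes. The sources used here give no version or annotation. Values ran from 6.27 to 26714, so the scale is linear and log2(intensity + 1) was used, which understates changes of dim probe sets slightly. Quantile normalization hides a shift of all genes. Control probe sets are not marked and were kept.

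All 35556 probe sets were tested with lmFit and eBayes of limma 3.58.1, without covariates, in R 4.3.3, with Benjamini-Hochberg adjustment over all of them and a threshold of 0.05. Adjusted p-values, SEs and 95% intervals are limma's. The probe table names 1 gene for 21789 probe sets, several for 1621 and none for 12146. Members, lists and tests were chosen with earlier results of these data known. All members were named, Sox4, and of each pathway list the called genes or, with fewer than 4 called, the 4 with the smallest p. Socs3, Cish, Slfn1 and the marker genes were named after their values were seen. Genes absent under their listed symbol were matched through older symbols of the gene table. The number of arrays limits the precision. Alternatives were other variance priors, brightness filters, probe sets, normalizations, array weights and pseudocounts, a replicate block and single arrays left out. Genes on several-gene probe sets were left out.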

Additional observations from a re-analysis of the deposited data

How the results depend on the processing

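The number of higher members (4) was 7 over probe sets of 1 gene alone and with estimated array weights. It was also 7 with the mean of all probe sets of a gene. A further quantile normalization gave 6, and brighter probe sets gave 6 of 18 tested members. With arrays centred on their medians it was 3. Over the 12 alternatives that kept all arrays it ranged from 3 to 7, and with single arrays left out from 1 to 5. No alternative gave a lower member. The median difference of the members stayed between 0.09 and 0.12 with single arrays left out. Over the 12 other alternatives it lay between 0.07 and 0.14. Among the 154 further pathway genes 15 were higher, but 23 among brighter probe sets, 24 over probe sets of 1 gene, 32 with array weights, 25 with gene means and 8 to 20 with single arrays left out. There 9 were lower, but 14 with an intensity trend, 18 over probe sets of 1 gene, 17 after a further quantile normalization, 15 with cyclic loess, 19 with array weights, 18 with gene means and 6 to 9 with single arrays left out. Tests over fewer probe sets adjust for fewer and also estimate the variance prior anew. For no setting was the cause of a changed count tested. Of all probe sets 1143 were higher and 1009 lower, against 2415 and 1612 with array weights and 606 to 1319 and 654 to 883 with single arrays left out. Samples with the same replicate number did not deviate together in every pair (correlations of 0.205, 0.344 and -0.049). The replicate block gave 4 higher members, where Ifi35 (adjusted p = 0.0655) lost its call and Parp14 gained one, and 13 higher and 9 lower pathway genes. By list, the block gave 2 higher and 1 lower sensor (against 4 and 2), 2 higher and 1 lower GTPase (against 0 and 0) and 0 higher class I genes (against 1, Erap1). Sox4 kept its call throughout, with differences of -1.38 to -1.25 without single arrays.

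Differences that changed sign were small and never called. Mx1 had -0.018 after quantile normalization and -0.0029 with cyclic loess, and Stat2 had 0.013 with array weights. With single arrays left out Oasl1 ranged from -0.079 to 0.042, Irf7 from -0.066 to 0.016, Mx1 from -0.038 to 0.049, Stat2 from -0.056 to 0.040, Bst2 from -0.12 to 0.021 and Il10rb from -0.089 to 0.025.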
